A study of Mus musculus with 2 samples.

Results

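The genes described here encode the proteins of the cytosolic ribosome. They were taken by symbol: every gene feature whose name starts with Rpl or Rps followed by a number, with Rplp0 to Rplp2 and Rpsa, without the Rps6k kinases, and with at least 1000 unique molecular identifiers (UMIs, each the count of 1 captured mRNA molecule) over the kept cells. Of 31055 gene features, 95 matched the symbols and 88 passed the limit, 53 of the large subunit pattern (Rpl) and 35 of the small subunit pattern (Rps, Rpsa). The 7 symbols left out held 610 UMIs (Rpl7a-ps5), 273 (Rpl13a-ps1), 127 (Rpl39l), 90 (Rpl3l), 5 (Rpl9-ps1), 2 (Rpl10l) and 0 (Rpl36-ps4). The 3 members just inside held 1928 UMIs (Rpl36a-ps1), 2909 (Rps12-ps3) and 3255 (Rpl9-ps6). The symbols also brought in 5 copies with a -ps ending, Rpl7l1, which resembles Rpl7, and Rps19bp1, a protein that binds Rps19 and is no ribosomal subunit. All of these are kept among the 88 and are named where they set an extreme.

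The cytosolic ribosome translates nuclear mRNAs. Its small subunit reads the codons and its large subunit forms the peptide bonds, and most of the proteins are present once in a finished particle. In mammals most of these mRNAs begin with a C followed by a run of pyrimidines, the 5′ terminal oligopyrimidine (TOP) motif, through which growth signals set their translation as a group. A few proteins have near copies encoded elsewhere in the genome, such as Rps27 and Rps27l, or Rpl22 and Rpl22l1, and cell types can differ in which copy they transcribe.

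The cells came from a B78ChOVA melanoma, a mouse tumour line injected under the skin of the flank in 50 µl and harvested on day 16. Tumours were cut alive into sections of about 160 µm, and cells were given light-placed DNA barcodes by region (ZipSeq), dissociated and sorted for a 10x Genomics run, with the cell type labelled as immune. The 2 samples, a gene expression library and a spatial barcode (ADT) library, are of the same cells, so there is 1 library of mRNA with no replicate. Mouse strain, genotype, sex and age, the number of tumours and the sort gate were not given in the sources used here.

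Of the deposited barcodes, 4236 had at least 1000 gene UMIs, 500 genes and at most 10% mitochondrial UMIs, and each of the 4236 also held spatial barcode UMIs. They carried 110576510 gene UMIs, with a median of 23132 per cell, from 1027 to 215512. A gate on marker genes, counted per 10000 UMIs of a cell, placed 3562 cells in 5 classes: 588 lymphoid-like, 555 monocyte-like, 2191 macrophage-like, 187 dendritic cell (DC)-like and 41 melanoma-like. A gate is a range and not a type: with all its limits at 80% or 125% of their value, 225 or 243 cells changed class. The 184 cells with lymphoid and macrophage markers together were left out as mixed, no doublet caller was run, and 334 cells with both monocyte and macrophage markers were kept apart. The markers bear on the labels in 2 points. Melanoma-like cells are no immune cells, though the cells are labelled immune, and their median of 16.9 macrophage-marker UMIs per 10000 lay beside 58.8 for the melanoma markers. Macrophage-like cells had a median of 248 for their own markers, but the 10 genes that most set them above the other cells began with the immunoglobulin gene Ighg2c and held none of the listed macrophage markers. The markers of fibroblasts, mast cells, keratinocytes and erythroid cells had a median of 0 in every class. With 1 library no test between conditions is possible, so levels are given with exact 95% intervals that cover counting error only, and a ratio past 1.5 is used as a limit of size and not as a test.

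Start sites are shown for the members on which the results turn, since TOP mRNAs are defined by their first bases. RefSeq's table for GRCm38.p6 held a start for 63 of the 88 members. Where a gene had more than 1 start the first listed was used, and the windows and counts of runs rest on that choice. Of the genes shown, Rps27l and Rpl22 had 2 starts each. Each window runs from 15 bases before to 15 bases from the annotated start, 5′ to 3′ on the gene's strand, and the longest run of C and T that comes within 5 bases of the start is in capitals. In Rps27rt a second run of the same length, the ctttcc shared with Rps27, starts at the annotated start and is left in lower case. Rps27 and Rps27rt are shown because they are near copies that share 14 bases here, ctttccggcggtga, while Rps27l, the other copy, has another start. Rps15a, Rpl12 and Rpl22l1 follow because their levels depart from the module in some class, and Rpl22 stands beside its copy.
Rps27, chr3:90213634-90213663, minus strand: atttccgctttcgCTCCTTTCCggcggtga
Rps27rt, chr9:114982725-114982754, minus strand: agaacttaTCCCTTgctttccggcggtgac
Rps27l, chr9:66946071-66946100, plus strand: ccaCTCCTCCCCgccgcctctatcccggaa
Rps15a, chr7:118116133-118116162, minus strand: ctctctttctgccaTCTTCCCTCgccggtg
Rpl12, chr2:32961697-32961726, plus strand: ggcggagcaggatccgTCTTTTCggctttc
Rpl22, chr4:152325711-152325740, plus strand: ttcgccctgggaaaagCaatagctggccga
Rpl22l1, chr3:28805493-28805522, plus strand: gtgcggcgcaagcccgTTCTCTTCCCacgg

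A run of at least 6 pyrimidines that comes within 5 bases of the start was present in 30 of the 63 members (47.6%), against 20.96% of all 27025 RefSeq promoters. The letters CTTTCC, read forward anywhere in the window, were in 9 of 63 (14.3%) against 1.39% of all, and on the reverse strand in 0 against 1.21%. In the 250 bases before the start, TTCCGG, the core of ETS factor motifs, was in 15.9% of members forward and 25.4% reverse, against 6.92% and 6.87% of all. CACGTG, the E-box bound by Myc, was in 6.35% against 6.05%. These matches are descriptions of the letters and not of bound factors. The length of the run did not sort the members by class: in lymphoid-like over macrophage-like cells the median ratio was 1.62 for members with a run of 6 or more and 1.54 for the others, and in melanoma-like over macrophage-like cells 1.40 and 1.41.

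Ribosomal protein mRNAs made up 16.6% of all gene UMIs in the kept cells, and their share differed between classes widely. It was highest in lymphoid-like cells, at 24.5% of their UMIs, then 22.4% in melanoma-like, 20.2% in DC-like, 16.1% in monocyte-like and 15.4% in macrophage-like cells. Counting intervals were narrow, for example 15.37% to 15.39% in macrophage-like cells. The spread between cells was far wider.

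Over single cells the median share was 24.6% in lymphoid-like cells (quartiles 20.1% and 29.3%) and 15.4% in macrophage-like cells (13.5% and 17.2%), so the interquartile ranges of these classes did not overlap. It was 20.3% in DC-like cells (17.7% and 22.4%), 15.8% in monocyte-like cells (13.6% and 17.8%) and 22.1% in melanoma-like cells (20.3% and 27.1%). The macrophage-like median was passed by 544 lymphoid-like cells (92.5%), 165 DC-like cells (88.2%), 299 monocyte-like cells (53.9%) and 41 of 41 melanoma-like cells. Monocyte-like and macrophage-like cells overlapped over most of their range, and the monocyte-macrophage cells between them stood at 15.2%.

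**Figure D1:**
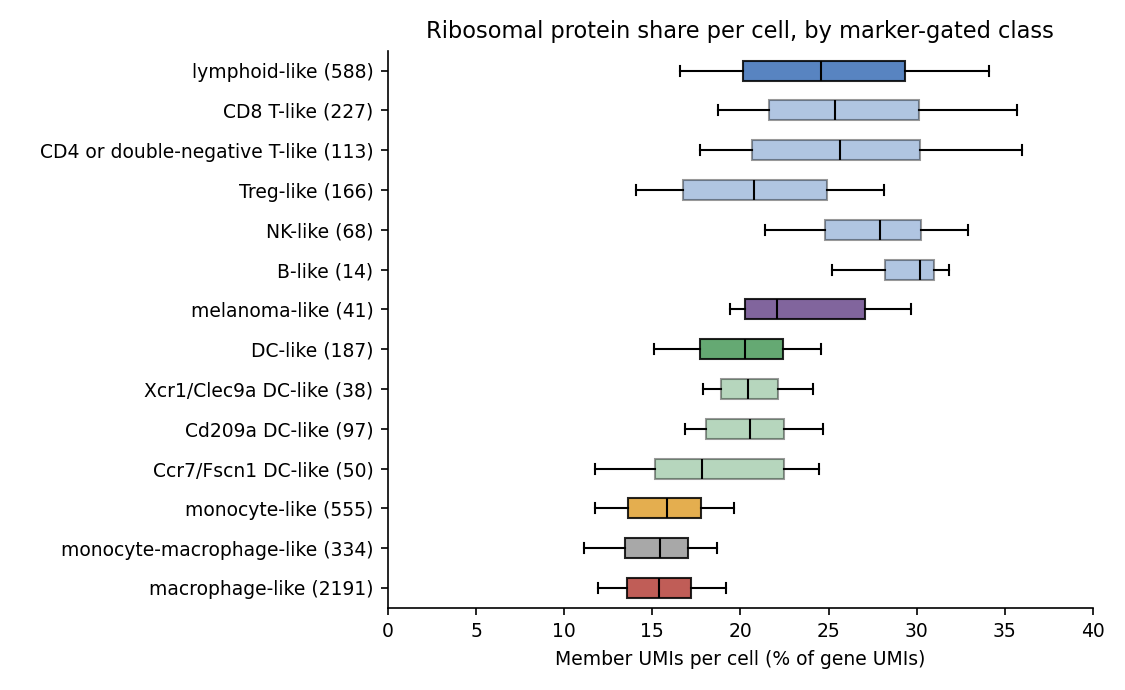
Share of a cell's gene UMIs that are ribosomal protein UMIs (percent, x axis) for the cells of each class and subclass; the number of cells is in parentheses, boxes are quartiles with the median as a line, whiskers the 10th and 90th percentiles. Lymphoid-like cells (median 24.6%) and DC-like cells (20.3%) lie above monocyte-like (15.8%) and macrophage-like cells (15.4%), and B-like and NK-like cells are the highest subclasses.

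T-like cells under the limits for CD8 and regulatory markers (4 and 6 UMIs per 10000) are called other T-like here. In the figures they are CD4 or double-negative T-like. Within the lymphoid-like class the share was 30.1% in 14 B-like cells, 28.5% in 68 natural killer (NK)-like cells and 25.3% in 227 CD8 T-like cells. It was 24.3% in 113 other T-like cells and 21.4% in 166 regulatory T (Treg)-like cells. Treg-like cells, the lowest of these, were still above the DC-like sum. Among DC-like cells it was 20.8% in 97 Cd209a DC-like cells, 20.6% in 38 Xcr1/Clec9a DC-like cells and 18.3% in 50 Ccr7/Fscn1 DC-like cells, which carry the genes of migrating DCs.

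Depth moved with class: the median was 6389 gene UMIs per lymphoid-like cell, 10974 per monocyte-like, 18457 per DC-like, 31062 per macrophage-like and 83527 per melanoma-like cell. Within lymphoid-like and macrophage-like cells the share did not run one way with depth. In 4 sets of cells of equal size, from the shallowest to the deepest, the medians were 23.2%, 27.3%, 25.5% and 22.8% in lymphoid-like and 15.7%, 15.4%, 15.2% and 15.3% in macrophage-like cells, while in melanoma-like cells they were 27.8%, 22.5%, 23.0% and 20.2%. Among cells with 5000 to 20000 UMIs the sums were 25.01% for lymphoid-like, 19.8% for DC-like, 16.2% for macrophage-like and 15.9% for monocyte-like cells, so the last pair changed order. Free RNA, taken from barcodes with 10 to 100 UMIs, had a share of 18.4%, between the classes, and held a summed 169.7 macrophage-marker and 6.5 lymphoid-marker UMIs per 10000.

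In lymphoid-like over macrophage-like cells, 55 of the 88 members were more than 1.5 times higher and 1 was more than 1.5 times lower. The same limits were passed by 19.2% of all 7780 genes compared for higher and 24.9% for lower. The median ratio of the members was 1.59 against 1.00 for all genes, and 83 of 88 lay above 1. The medians of the subunits were close, 1.62 for Rps and 1.57 for Rpl genes. At a limit of 2 times in place of 1.5, 5 members were higher, 5.68% against 8.95% of all genes, so at that limit members passed less often than genes in general.

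The highest ratio belonged to Rps27, a zinc-binding protein of the small subunit (ENSMUSG00000090733, chr3:90212522-90213651 in the mm10 annotation). It stood at 2244 CPM, UMIs of the gene in every 1000000 gene UMIs, in lymphoid-like, 1490 in DC-like, 1336 in monocyte-like, 759.5 in macrophage-like and 683.5 in melanoma-like cells, and lymphoid-like over macrophage-like cells gave 2.95 (95% interval 2.90 to 3.01). The quartiles over single cells were 1698 and 4243 CPM in lymphoid-like against 602 and 943 in macrophage-like cells, without overlap. Its near copy Rps27rt followed at 2.87 (2.66 to 3.10), but 72.7% of the 60-base windows in the last 400 bases of Rps27 transcripts also occur in Rps27rt, so reads of this pair may not be told apart. Rps27rt held between 4.78% and 5.65% of the pair's UMIs in every class.

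Rps15a, a small subunit protein, was at 5794 CPM in lymphoid-like and 2369 in macrophage-like cells, a ratio of 2.45 (2.42 to 2.47). Rpl13a, which leaves the ribosome to silence inflammatory mRNAs in myeloid cells, was at 434 and 212 CPM (ratio 2.05). Rpsa, also known as the laminin receptor, was at 6074 and 2981 CPM (2.04, 2.02 to 2.06). Each of these was far above the members' median of 1.59. At the other end stood genes that are not standard subunits: Rpl7l1 at 69.7 against 116.6 CPM (0.598, 0.542 to 0.657), Rps27l at 366.6 against 541 CPM (0.678, 0.650 to 0.707) and Rps19bp1 at 0.804. Rpl10-ps3 (0.973, 0.854 to 1.10) was also among the 5 lowest.

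In monocyte-like over macrophage-like cells the module as a whole was near level, with a median ratio of 1.05 against 0.93 for all genes. Among cells with 5000 to 20000 UMIs the order turned, with 0.996 for the members against 1.07 for all genes. Only Rps27 (1.76, 1.72 to 1.80) and Rps27rt (1.70) were past 1.5 times higher and only Rpl7l1 (0.666, 0.610 to 0.726) past 1.5 times lower, against 13.9% and 21.7% of all genes. Rps9, a small subunit protein, came next at 3083 against 2185 CPM (1.41), followed by Rpl34 (1.28) and Rpl36al (1.24). Rpl12, a protein of the stalk base where elongation factors bind, was at 1242 against 1832 CPM (0.678, 0.663 to 0.693), and Rpl31 (0.699) and Rpl36a-ps1 (0.713) were also low. Single-cell quartiles of Rpl12 were 772 and 1443 CPM in monocyte-like and 1452 and 2154 in macrophage-like cells, just short of overlapping. In that depth range Rps27 fell short of the limit (1.44) and so did Rpl7l1 (0.785).

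In DC-like over macrophage-like cells 5 members were past 1.5 times higher and 0 past 1.5 times lower, against 12.3% and 26% of all genes. The median was 1.30 against 0.89 for all genes, and 83 of 88 members were above 1, so most members were moderately higher rather than a few by much. Among them were Rps27 (1.96), Rps27rt (1.88), Rpsa at 4901 against 2981 CPM (1.64) and Rps9 (1.55), which are of the small subunit. Rps9 was at 1.42 among cells with 5000 to 20000 UMIs. With free RNA subtracted 15 members passed the limit (17.0% against 13.1% of all genes), and 16 without mitochondrial and ribosomal protein UMIs in the denominator (18.2% against 14.01%). Among the lowest were Rps19bp1 (0.771), Rpl7l1 (0.818), Rps2 (0.924) and Rpl31 (0.927).

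**Figure D2:**
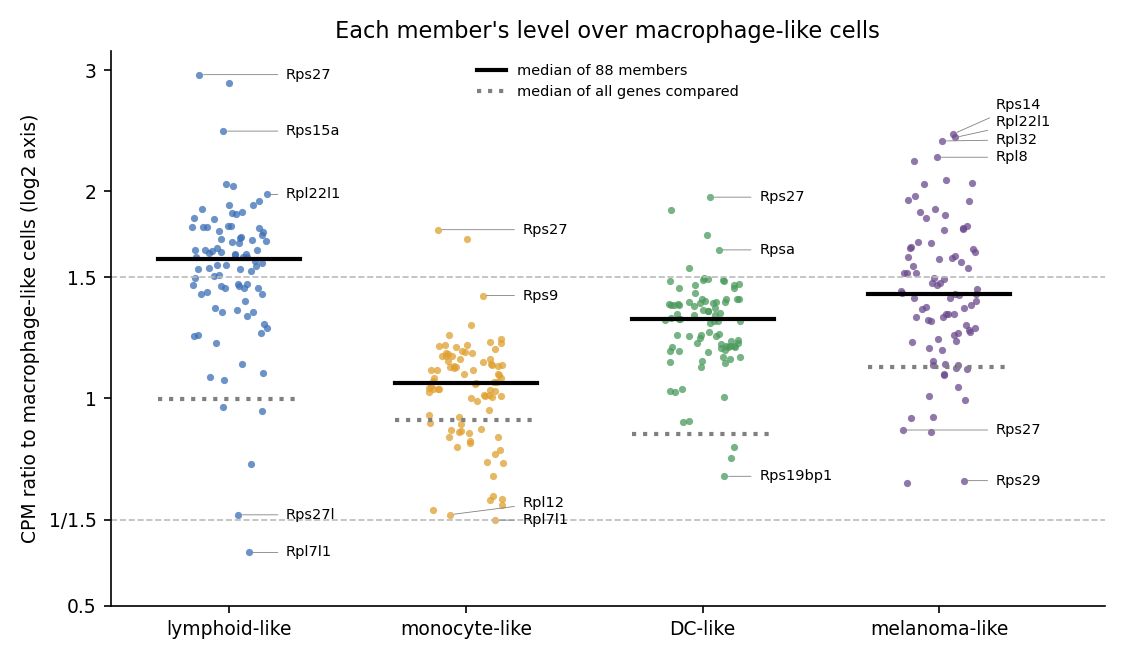
Ratio of CPM in each class to macrophage-like cells for the 88 members (points, log2 y axis), with the median of the members as a solid line, that of all 7780 genes compared as a dotted line, and the limits of 1.5 times dashed. The members' median sits above the median of all genes in each class, and Rps27 leads in lymphoid-like, monocyte-like and DC-like cells but not in melanoma-like cells.

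In the 41 melanoma-like cells over macrophage-like cells, 35 members were past 1.5 times higher and 0 past 1.5 times lower, against 30.3% and 25.9% of all genes. The members' median was 1.42 against 1.11 for all genes. The contrast with all genes depended on the minimum per gene. With 100 UMIs per gene, 39.6% of 91 members and 38.5% of all genes were past 1.5 times higher. With 5000 UMIs per gene, 39.8% of 83 members and 19.8% of all genes were. Without mitochondrial and ribosomal protein UMIs in the denominator 53 were higher (60.2% against 38.2% of all genes). At a limit of 2 times 8 were (9.09%), fewer than the 15.4% of all genes. Here the large subunit was ahead, with a median of 1.52 for Rpl against 1.33 for Rps genes. Summed over the genes without -ps symbols and Rps19bp1, Rpl UMIs were 1.44 times Rps UMIs in melanoma-like cells and between 1.17 and 1.247 times in the other classes.

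Rps14 was at 4726 against 1951 CPM in macrophage-like cells (2.42, 2.38 to 2.46), Rpl22l1 at 1053 against 439.8 (2.39), Rpl32 at 8559 against 3617 (2.37), Rpl8 at 4669 against 2083 (2.24) and Rpl23a at 1705 against 769.7 (2.22). All 5 are large subunit proteins except Rps14. Rps27, highest by ratio in the lymphoid-like class, was among the lowest here at 0.900 (0.863 to 0.938; 1.02 without mitochondrial and ribosomal protein UMIs in the denominator), with Rps27rt at 0.754, Rps29 at 1561 against 2055 CPM (0.760, 0.739 to 0.781), Rpl10-ps3 at 0.893 and Rpl10 at 0.938. One melanoma-like cell held up to 10.8% of the class's UMIs for a single gene among those examined (Rps27l), so 41 cells give little weight to any one ratio.

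Set against the module itself, 16 members departed by more than 1.5 times in some class. Each gene's share of all member UMIs in a class was divided by its share in the other classes. Of all 7780 genes, set against their own median, the shares past this limit for higher and lower were 17.7% and 24.4% in lymphoid-like, 15.8% and 17.5% in monocyte-like, 14.2% and 13.5% in macrophage-like, 14.6% and 18.9% in DC-like and 24.3% and 29.1% in melanoma-like cells. In lymphoid-like cells Rps27 (1.75), Rps27rt (1.72) and Rps15a (1.53) were high, and Rpl10-ps3 (0.624), Rps19bp1 (0.519), Rps27l (0.438) and Rpl7l1 (0.398) low. In melanoma-like cells Rpl32 (1.67), Rpl22l1 (1.64), Rps14 (1.62), Rpl8 (1.53) and Rpl23a (1.51) were high, and Rps27rt (0.447), Rps27 (0.528), Rps29 (0.535), Rpl10-ps3 (0.639) and Rpl11 (0.657) low. Rps27 and Rps27rt were at 1.53 and 1.5 in monocyte-like cells, where Rpl12 was at 0.656; Rpl7l1 was at 1.70 and Rps27 at 0.657 in macrophage-like cells; Rps19bp1 was at 0.623 in DC-like cells. The widest range over the 5 classes was that of Rps27rt (3.81-fold), then Rps27 (3.28), Rpl32 (2.69), Rpl22l1 (2.66) and Rpl13a (2.66). The median member ranged 1.76-fold, against 2.53-fold for all genes compared, the latter with 1 count added. Genes were not matched for level here, and those with few UMIs also vary by counting error.

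Among the 10 members with the most UMIs over all kept cells were Rps24 (3977 CPM), Rpl13 (3973), Rpl32 (3918), Rpl23 (3802), Rps2 (3550), Rplp1 (3529), Rps27a (3507), Rpsa (3307) and Rpl19 (3182). The 5 lowest were Rpl36a-ps1 (17.4), Rps12-ps3 (26.3), Rpl9-ps6 (29.4), Rpl10-ps3 (42.7) and Rps19bp1 (45.2). CPM is per captured mRNA and not divided by length, so this order is one of UMIs. Sequence sharing bears on both ends of this order. Of the 60-base windows at the 3′ end, 94.4% in Rpl9-ps6 and 91.8% in Rpl10-ps3 also occur in another gene's transcript. Reads could thus be split between them and Rpl9 or Rpl10. In 41 of the 88 members at least 50% of such windows are shared with another gene. Among the highest members the shared part was 90.3% for Rps27a, 87.7% for Rpl13 and 80.9% for Rps2, but 0 for Rps24 and Rpsa.

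The shares of several near copies differed between classes. Rps27l, a target of p53 as well as a copy of Rps27, held 14.04% of the UMIs of the pair in lymphoid-like, 24.6% in monocyte-like, 29.5% in DC-like, 41.6% in macrophage-like and 53% in melanoma-like cells. At the extremes the 2 genes ran opposite ways: Rps27 was highest and Rps27l lowest in lymphoid-like cells, at 366.6 CPM, against 541 in macrophage-like and 771 in melanoma-like cells. Among cells with at most 5% mitochondrial UMIs, which left 12 melanoma-like cells, Rps27l was no longer higher in melanoma-like than in macrophage-like cells (ratio 0.965, against 1.42). In free RNA the share was 36.2%. Only 4.69% of the 3′ windows of Rps27l occurred in another gene's transcript, against 72.7% for Rps27.

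Within the lymphoid-like class Rps27 stood at 5902 CPM in B-like cells (5371 to 6471), 2779 in NK-like, 2754 in other T-like, 2089 in CD8 T-like and 1915 in Treg-like cells. Rps27l ran from 169 CPM in B-like cells, 13 UMIs with an interval of 89.98 to 289, to 399 in CD8 T-like cells. Among DC-like cells Rps27l was at 1096 CPM (1027 to 1169) in Ccr7/Fscn1 DC-like cells, above its level in the 5 classes, but at 425 in Cd209a and 555 in Xcr1/Clec9a DC-like cells, while Rps27 was at 1662, 1540 and 1254. So the order of Rps27l over DC-like cells was not the reverse of that of Rps27.

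**Figure D3:**
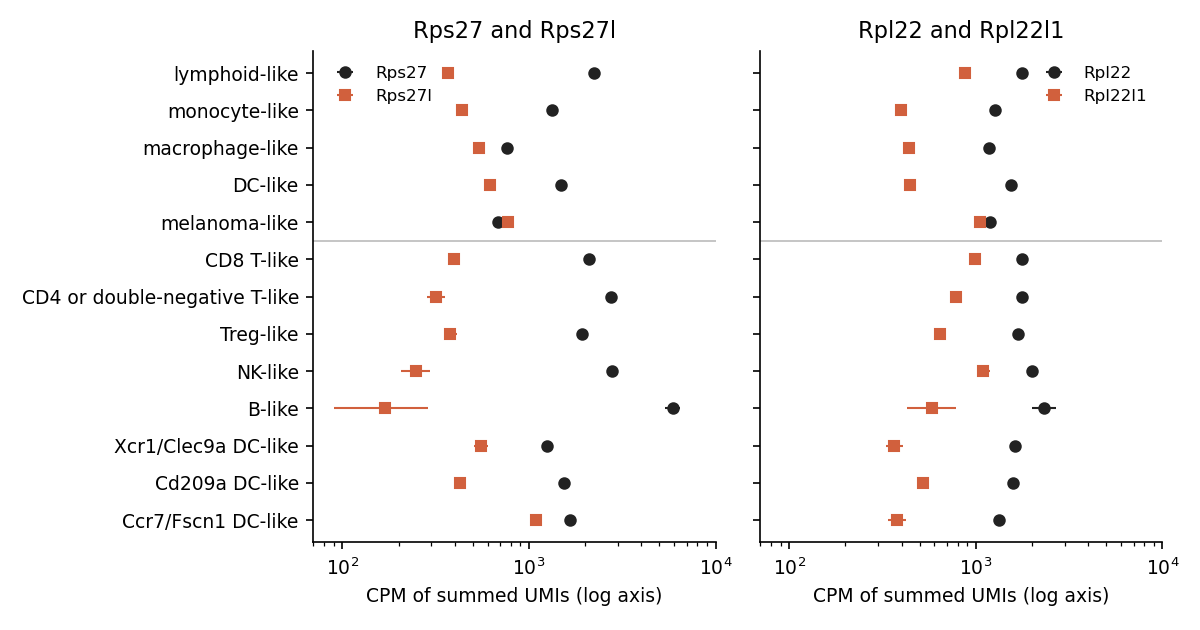
CPM of Rps27, Rps27l, Rpl22 and Rpl22l1 in each class and subclass (log axis), with exact 95% Poisson intervals that cover counting error only. Rps27 runs from 683.5 in melanoma-like to 5902 in B-like cells, and Rps27l from 169 in B-like to 1096 in Ccr7/Fscn1 DC-like cells.

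Rpl22l1, which shapes T cell development and splicing beside Rpl22, held 32.9% of that pair in lymphoid-like, 23.9% in monocyte-like, 27.2% in macrophage-like, 22.4% in DC-like and 47.0% in melanoma-like cells. Rpl22 itself varied less, between 1177 and 1775 CPM over the classes. Rpl22l1 was at 1098 CPM in NK-like, 984 in CD8 T-like, 787 in other T-like and 644 in Treg-like cells. Rpl36al held 44.9% of its pair with Rpl36a in monocyte-like against 29.7% in lymphoid-like cells, and Rplp2 39.4% of the stalk pair with Rplp1 against 29.7% in macrophage-like cells. Rpl7l1 held 7.65% of its pair with Rpl7 in macrophage-like and 2.71% in lymphoid-like cells. Of the 60-base 3′ windows, 100% in Rpl36a, 80.6% in Rpl7 and 77.1% in Rpl36al also occur in another gene's transcript. The values were 55.4% in Rpl22l1, 52.8% in Rplp1, 31.1% in Rplp2 and 0% in Rpl22 and Rpl7l1. Reads of the genes with shared windows could be split with others, so these pair shares may be affected. Of the tissue-restricted copies, Rpl39l had 81 UMIs in all macrophage-like cells, and Rpl39l, Rpl3l and Rpl10l were at most 0.214% of their pairs in any class (Rpl3l in monocyte-like cells, 26 UMIs). The -ps copies kept a like share of their pairs, 2.25% to 2.57% for Rpl10-ps3 and 1.15% to 1.28% for Rpl9-ps6.

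Other genes of translation were counted from lists made for this purpose. Among ribosomal genes that the symbols miss, Rack1 (1.48) and Fau (1.44) were just short of 1.5 times in lymphoid-like cells, and in melanoma-like cells Rack1 was past it (1.58) and Fau was at 0.892. Of 14 further TOP mRNAs compared, 5 were past 1.5 times higher and 1 lower in lymphoid-like cells, with a median of 1.38 against 1.00 for all genes. These were 35.7% and 7.14% of the list, beside 19.2% and 24.9% of all genes. Tpt1, one of the most abundant TOP mRNAs, was at 7447 against 3656 CPM (2.04), Eif3f at 1.91, and Vim, a filament gene, was the one lower (0.561). In lymphoid-like cells the elongation factors Eef1b2 (1.80) and Eef1a1 (1.53) were the 2 of 6 past the limit (33.3% beside 19.2%). In monocyte-like cells the 14 TOP mRNAs were near level (median 1.05). In melanoma-like cells 6 of the TOP mRNAs were higher (42.9% beside 30.3% of all genes), among them Npm1 (2.28) and Eif3l (2.23).

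Few ribosome assembly genes were past the limit for higher in the immune classes. Of 29 biogenesis genes compared, 1 (Polr1d, 1.61) was past 1.5 times higher and 0 lower in lymphoid-like cells, beside 19.2% and 24.9% of all genes. The median of the 29 was 1.03. In monocyte-like cells 0 were higher and 11 lower (median 0.746; 37.9% beside 21.7% of all genes), with Nop56 at 0.386, and in DC-like cells 1 was higher and 8 lower (0.776), or 27.6% beside 26% of all genes. In melanoma-like cells 21 were higher (72.4% beside 30.3% of all genes) and 0 lower (1.71), led by Polr1a (3.91) and Polr1c (2.69), subunits of RNA polymerase I, which transcribes ribosomal RNA. Of 77 mitochondrial ribosome genes, 4 were higher and 5 lower in lymphoid-like cells (median 0.997), 2 and 22 in monocyte-like (0.773), 0 and 13 in DC-like (0.829) and 27 and 0 in melanoma-like cells (1.30). Beside all genes, the 35.1% higher in melanoma-like cells was near 30.3%, and the 16.9% lower in DC-like cells was under 26%. In monocyte-like cells 28.6% of these genes were lower, beside 21.7% of all genes. In lymphoid-like cells 5.19% were higher and 6.49% lower, beside 19.2% and 24.9% of all genes. Of 24 initiation factors, 2 were higher and 3 lower in lymphoid-like cells (8.33% and 12.5% beside 19.2% and 24.9% of all genes). There Eif4ebp1, an inhibitor of cap-dependent initiation, was at 41.8 against 235.1 CPM in macrophage-like cells (0.178).

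All 15 cell cycle genes listed were past 1.5 times lower in monocyte-like and in DC-like than in macrophage-like cells. Of all genes 21.7% and 26% were. Of 12 dissociation stress genes 10 were past 1.5 times higher in monocyte-like cells (83.3% beside 13.9% of all genes). The part of both lists in the shares was not tested. Cells were split by a cell cycle UMI after thinning each to 1000 UMIs, which 52.3% of macrophage-like cells held (96.4% unthinned). The share of ribosomal protein UMIs was 15.3% in the 1146 macrophage-like cells with such a UMI and 15.5% in the 1045 without, and 23.97% and 24.8% in 153 and 435 lymphoid-like cells. Among melanoma-like cells it was 21.4% in 27 and 25.02% in 14. In each of these the share was lower with a cell cycle UMI, while 76 and 479 monocyte-like cells had 16.2% and 16.1%. In 46 and 141 DC-like cells it was 19.6% and 20.4%, but 20.2% and 20.1% after thinning to 2000 UMIs. Median depth with and without such a UMI was 36375.5 and 25805 in macrophage-like and 12210 and 5970 in lymphoid-like cells. It was 92059 and 69729 in melanoma-like cells, and the part of depth in these differences was not tested.

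Members lie on 20 chromosomes, so their ratios were set beside those of the other genes of each chromosome. In melanoma-like over macrophage-like cells the median of the other genes was 1.67 on chromosome 15 (302 genes) and 1.66 on chromosome 6 (392 genes), the highest of all, against 0.822 on chromosome 13. The 5 members on chromosome 15, among them Rpl8, Rpl30, Rpl3 and Rpl37, had a median of 1.94, and the only member on chromosome 6, Rpl32, was at 2.37. Members on chromosome 4 had 1.12 beside 0.956 for the other genes there, and those on chromosome 12, which holds Rps29, 1.11 beside 1.04. Over the 18 chromosomes with at least 2 members, the log2 medians of members and other genes had r = 0.67 and rho = 0.59 in melanoma-like cells, and r = -0.31 in lymphoid-like, 0.05 in monocyte-like and -0.36 in DC-like cells. These are descriptions over chromosomes of the same libraries, and gene copy number was not tested.

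**Figure D4:**
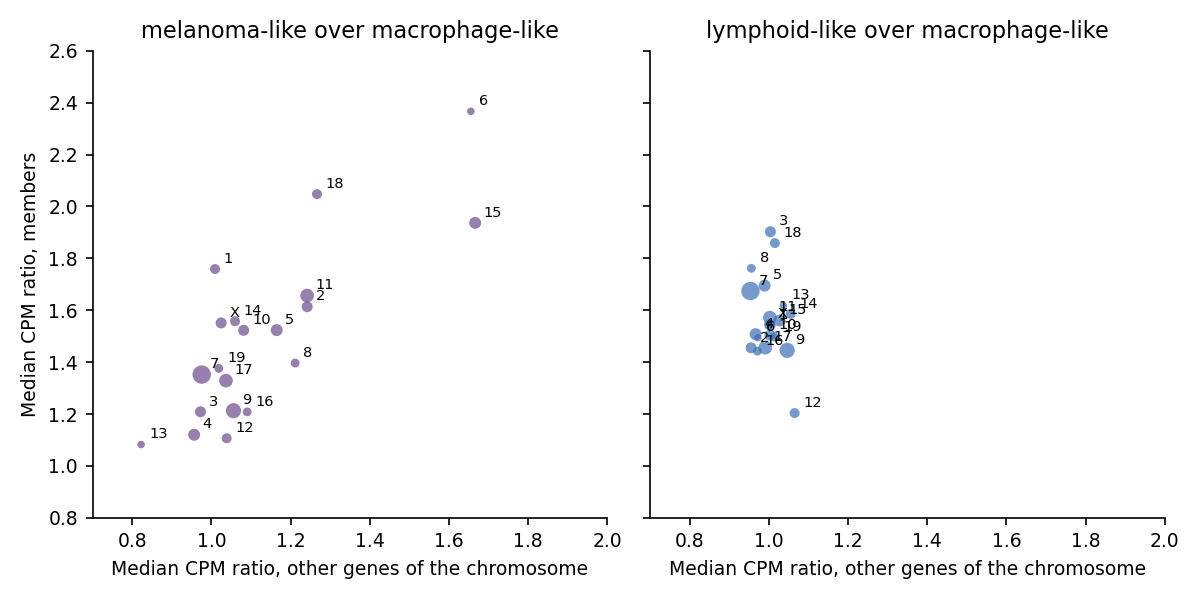
Median ratio of members (y axis) against the median ratio of all other genes on the same chromosome (x axis), for melanoma-like and lymphoid-like over macrophage-like cells; each point is a chromosome, larger with more members. In melanoma-like cells chromosomes 6 and 15 are at the upper right, and in lymphoid-like cells the points show no such slope.

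CD8 T-like cells were split, after thinning each cell to 1000 UMIs, by a UMI of the inhibitory receptors Pdcd1, Havcr2, Lag3 or Tigit or of Tnfrsf9, a list chosen after the data had been seen. The share of ribosomal protein UMIs was 24.3% in the 91 cells with such a UMI (quartiles over cells 20.6% and 27.8%) and 26.3% in the 136 without (23.2% and 32.9%). The quartiles overlapped, and median depth differed, at 12254 and 6318 UMIs; its part in the difference was not tested. Of 87 members with at least 100 UMIs, 2 were past 1.5 times higher, Rps19bp1 (1.73) and Rpl7l1 (1.57), and 0 lower, against 5.59% and 4.59% of 3991 genes. Rps27 was at 1720 against 2440 CPM (0.705, 0.671 to 0.741) and Rps27l at 480 against 322 CPM (1.49, 1.33 to 1.67). So this pair differed in opposite directions here, as between lymphoid-like and macrophage-like cells. In DC-like over macrophage-like cells both were higher, Rps27 at 1.96 and Rps27l at 1.15.

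A cell was assigned to its leading spatial barcode when that had 10 or more counts and 2 or more times those of the runner-up; the regions behind ZC1, ZC2 and ZC3 were not given in the sources used here. Only lymphoid-like cells had 20 or more cells for each barcode. Their share was 27.6% in 48 ZC1 cells (27.5% to 27.8%), 25.9% in 44 ZC2 cells and 23.9% in 179 ZC3 cells, with quartiles over cells of 23.4% and 30.1%, 22.5% and 30.1%, and 19.6% and 27.9%, which overlap. The makeup of these sets differed as well: NK-like cells were 25% of the ZC1 cells and 9.50% of the ZC3 cells, and Treg-like cells 20.8% and 34.1%. Within CD8 T-like cells it was 26.2% in 20 ZC2 and 25.04% in 64 ZC3 cells, and 13 ZC1 cells were too few to compare. The makeup's part in the difference between barcodes was not tested.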

How the data were processed

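The deposited matrix held whole-number counts (UMIs) of gene and spatial barcode features over all barcodes, made by the authors with Cell Ranger 4.0.0 on mm10, per the submitters' processing notes; the settings were not given in the sources used here. It held 117528298 gene UMIs and 14355102 spatial UMIs. Cells were kept as stated above and classed by summed marker UMIs per 10000: lymphoid at 20 or more (8 or more kept a cell out of the other classes), macrophage 60, monocyte 10, DC 4 and melanoma 10. These limits, the subclass limits and the gate at 80% and 125% of its limits were set after the data had been seen, and members and lists were chosen with earlier results of these data known. Counts were summed over the cells of a class and given as CPM with exact Poisson, shares with Clopper-Pearson and ratios with conditional binomial intervals at 95%, for genes with at least 1000 UMIs. No test was made, since there is 1 library. Genes named are the 5 highest and 5 lowest members of each comparison, the 10 highest and 5 lowest by level, members departing over 1.5 times within the module, paralogue pairs, and the 2 highest and 2 lowest of each other list, of which a selection is printed; a few of the genes so chosen are left out here; level and pair values beyond these were chosen after they were seen. Motifs and 3′ windows of 60 bases were searched in RefSeq GRCm38.p6 promoters and GENCODE M21 transcripts; 88 of 88 members matched the latter. Alternatives changed the cell and gene filters, the mitochondrial limit, the averaging, the scaling, the depth, the classes (Leiden clusters without members), the fold limit, the barcode rule and the thinning, and subtracted free RNA. The code was tested on simulated data. Scripts ran in Python 3.11.15 with scanpy 1.11.5 for clustering, scipy 1.17.1 for intervals, and pandas 2.3.3, matplotlib 3.10.9 and numpy 2.4.6.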

Additional observations from a re-analysis of the deposited data

How the results depend on the processing

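Lymphoid-like cells had the highest share and melanoma-like and DC-like cells lay above monocyte-like and macrophage-like cells under every alternative that gave a value. Shares in percent are given for lymphoid-like, monocyte-like, macrophage-like, DC-like and melanoma-like cells in that order where all moved by more than their counting interval. They were 24.9, 15.7, 15.5, 19.9 and 23.8 as means over cells, 25.4, 16.6, 16.0, 20.8 and 23.8 without mitochondrial UMIs in the denominator, and 25.4, 16.0, 15.4, 20.2 and 22.8 with Leiden clusters. With at most 5% mitochondrial UMIs they were 23.7 (lymphoid-like), 15.5 (macrophage-like), 20.3 (DC-like) and 23.3 (melanoma-like, 12 cells). With 5000 to 20000 UMIs they were 25.01 (lymphoid-like), 15.9 (monocyte-like), 16.2 (macrophage-like) and 19.8 (DC-like), and no melanoma-like cell was in that range, so no value was possible. With free RNA subtracted they were 24.7, 16.0 and 14.9 in lymphoid-like, monocyte-like and macrophage-like cells. With marker limits at 80% they were 24.5, 20.3 and 22.8 in lymphoid-like, DC-like and melanoma-like cells, and at 125% they were 24.5, 16.0, 19.98 and 22.2 in lymphoid-like, monocyte-like, DC-like and melanoma-like cells. With at least 5000 UMIs monocyte-like cells were at 16.1. At a limit of 2 times in place of 1.5, 5 members were higher and 0 lower in lymphoid-like, 0 and 0 in monocyte-like, 0 higher in DC-like and 8 higher in melanoma-like cells, while 8.95%, 6.92%, 6.35% and 15.4% of all genes were higher, so members passed that limit less often than all genes in each class. Without mitochondrial and ribosomal protein UMIs in the denominator 53 members were higher in melanoma-like cells (60.2% against 38.2% of all genes). In DC-like cells 16 were higher (18.2% against 14.01%), and in lymphoid-like cells 0 were lower (against 20.9%). The median of all genes moved as well, from 1.00 to 1.12 in lymphoid-like and from 1.11 to 1.253 in melanoma-like cells. With free RNA subtracted 15 members were higher in DC-like cells (17.0% against 13.1% of all genes). Members lower in lymphoid-like cells were 2 with means over cells, with 5000 to 20000 UMIs, with Leiden clusters and with a minimum of 100 UMIs per gene. These were at most 2.41% of members, against 26.1% to 29.2% of all genes. In monocyte-like cells 6 were lower with means over cells (6.82% against 23.4% of all genes) and 5 with Leiden clusters (5.68% against 26.1%). With 5000 to 20000 UMIs 2 were lower (2.41% against 11.7%), and 2 with 100 UMIs per gene (2.20% against 26.99%). With at least 5000 UMIs and with either change of marker limits 0 were lower, against 21.4% to 21.9% of all genes. With 5000 to 20000 UMIs 0 were higher in monocyte-like cells, against 18.9%. Ratios of single named genes stayed on their side of the limit in 400 comparisons with an alternative, fell short of it in 8 and came past it in 21. In melanoma-like cells 1 member was lower with 100 UMIs per gene (1.10% against 25.6% of all genes). With 4 times the next barcode the ZC3 lymphoid-like share was 24.8%, but 4 ZC1 and 4 ZC2 lymphoid-like cells were left, so the barcodes could not be compared. Thinned to 2000 UMIs, shares with and without a cell cycle UMI were 15.4% and 15.5% in macrophage-like and 21.6% and 24.8% in melanoma-like cells, and 24.1% with one in lymphoid-like cells. The cause of these differences was not tested. No paired analysis was possible because both samples are libraries of the same cells, with 1 of each kind and no test.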
